A study of Mus musculus with 8 samples.

Results

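In the mouse spleen, 330 stretches of the genome held distal open chromatin at a high density. The genome was cut into 49264 bins of 50 kb on chr1 to chr19 of the mm10 build, and distal regions were counted in each bin by their midpoint. A distal region was a merged stretch of peaks that held at least 1 overlapping pair of peaks, 1 from each of the 2 bulk ATAC-seq libraries made with reverse crosslinking, and that kept clear of promoters. Promoters here were windows around the transcription start sites (TSSs) of coding genes that began 1000 bp before a site and ended 200 bp after it. A bin with 6 or more such regions was called dense. The 330 dense bins were 0.670% of all bins and held 2149 of 25515 distal regions, or 8.42%. Since the peaks of the libraries with reverse crosslinking chose the bins, those numbers describe the choice and are not a result.

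The libraries came from nuclei of formalin-fixed paraffin-embedded (FFPE) spleen of C57BL/6J mice, aged 8 weeks per the study's methods, with no genetic change or treatment. ATAC-seq marks accessible DNA by the insertions of the Tn5 transposase, and tagmented nuclei were divided for DNA purification with reverse crosslinking (+RV), a step with detergent and proteinase K that frees DNA from fixed protein, or without it (−RV). There were 2 bulk libraries per condition, which the study describes as technical replicates, and single-cell libraries with split-and-pool barcodes, whose fragments were deposited as 1 pooled set per condition. Spread between libraries therefore covers technical error only, and no value measures the spread between mice.

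Most regulatory DNA of a mammalian gene lies away from its promoter, in enhancers that are nucleosome-depleted where transcription factors bind. Enhancers can lie in the introns of the gene they act on, in neighbouring genes or in long intergenic stretches, and several often lie close together near genes that define a cell's identity. In the spleen, such clusters are known for genes of B and T lymphocytes, such as the immunoglobulin light-chain genes, the MHC class II genes and lymphocyte transcription factors. Accessibility marks candidate elements only, since open distal DNA can also be an insulator, a silencer or a promoter outside the annotation used.

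The following 6 stretches of 300 bases show what distal regions of dense bins look like. The first 3 are centred on the distal region with the highest caller score in each of the 3 bins with 10 distal regions. The other 3 were chosen after their values were seen, as the best-scoring distal region of the dense bin that stood highest in the B cell-like, the T cell-like and the erythroid-like barcodes described further on. Sequences are the + strand of the RefSeq mm10 (GRCm38) assembly, 5′ to 3′, and capitals mark matches, on either strand, to the transcription factor motifs spelled out in the motif results.
chr12:86824030-86824329 (near Irf2bpl, intergenic): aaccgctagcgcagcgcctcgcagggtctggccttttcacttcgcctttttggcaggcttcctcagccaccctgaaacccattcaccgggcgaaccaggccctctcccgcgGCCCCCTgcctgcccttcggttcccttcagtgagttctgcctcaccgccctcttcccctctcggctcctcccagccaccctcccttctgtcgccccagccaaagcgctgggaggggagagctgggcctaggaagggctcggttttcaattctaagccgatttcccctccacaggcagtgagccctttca
chr2:6256483-6256782 (near Echdc3, intergenic): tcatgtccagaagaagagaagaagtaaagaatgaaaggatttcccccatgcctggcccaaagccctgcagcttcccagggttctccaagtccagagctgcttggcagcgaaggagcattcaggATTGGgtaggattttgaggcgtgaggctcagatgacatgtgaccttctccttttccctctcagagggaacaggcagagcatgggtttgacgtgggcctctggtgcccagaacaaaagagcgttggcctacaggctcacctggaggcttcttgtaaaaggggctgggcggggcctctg
chr4:101185225-101185524 (Jak1 intron): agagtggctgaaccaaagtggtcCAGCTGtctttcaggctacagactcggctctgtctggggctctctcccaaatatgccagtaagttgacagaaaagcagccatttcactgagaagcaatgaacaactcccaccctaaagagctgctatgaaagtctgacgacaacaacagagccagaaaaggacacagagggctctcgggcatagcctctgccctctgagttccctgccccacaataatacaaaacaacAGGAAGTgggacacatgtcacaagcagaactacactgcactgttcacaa
chr16:19052827-19053126 (immunoglobulin lambda bin, intergenic): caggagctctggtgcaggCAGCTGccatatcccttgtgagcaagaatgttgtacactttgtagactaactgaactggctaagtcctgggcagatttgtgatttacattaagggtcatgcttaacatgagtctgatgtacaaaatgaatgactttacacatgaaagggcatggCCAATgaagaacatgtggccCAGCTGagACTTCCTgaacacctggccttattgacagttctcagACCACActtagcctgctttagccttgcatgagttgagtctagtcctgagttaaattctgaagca
chr9:85125736-85126035 (T cell-like bin without a gene, intergenic): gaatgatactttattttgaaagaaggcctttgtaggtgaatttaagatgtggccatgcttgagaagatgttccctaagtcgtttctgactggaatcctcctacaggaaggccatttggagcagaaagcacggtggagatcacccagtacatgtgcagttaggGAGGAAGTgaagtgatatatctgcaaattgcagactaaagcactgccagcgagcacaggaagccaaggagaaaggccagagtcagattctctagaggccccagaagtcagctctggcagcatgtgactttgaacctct
chr7:103860965-103861264 (near Hbb-y, intergenic): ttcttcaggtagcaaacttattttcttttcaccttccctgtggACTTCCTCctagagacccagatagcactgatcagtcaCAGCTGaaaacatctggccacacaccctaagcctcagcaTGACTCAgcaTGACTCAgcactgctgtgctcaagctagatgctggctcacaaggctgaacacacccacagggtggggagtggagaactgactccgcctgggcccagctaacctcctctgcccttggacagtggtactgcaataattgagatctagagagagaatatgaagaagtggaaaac
The stretch near Irf2bpl held a match to the CTCF core letters, that near Echdc3 a match to the NF-Y letters, and that in the Jak1 intron a match each to the E-box and ETS letters. The stretch of the immunoglobulin lambda bin held matches to the ETS, RUNX and NF-Y letters and 2 to the E-box. The stretch of the chr9 bin held 1 match to the PU.1-type letters. The stretch near the beta-globin genes held 1 match to the PU.1-type letters, 1 to the E-box and 2 matches to the AP-1 letters that lie side by side. All 6 regions except the chr9 region, which had a peak in 1 −RV library, had a peak in both −RV libraries.

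Bulk peak lists held 47755 and 47864 peaks in the +RV libraries and 32288 and 32736 in the −RV libraries, and the read numbers behind them are unknown here. The single-cell sets held 1592372 nuclear fragments of 2406 barcodes (−RV) and 13703580 of 18620 barcodes (+RV), with 2 barcodes found in both. The spleen label was checked in the single-cell sets by groups of barcodes with raised B cell, T cell, erythroid or macrophage genes. Another group of 801 barcodes (7.61% of the −RV and 3.32% of the +RV barcodes) had pancreatic acinar genes raised.

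**Figure D1:**
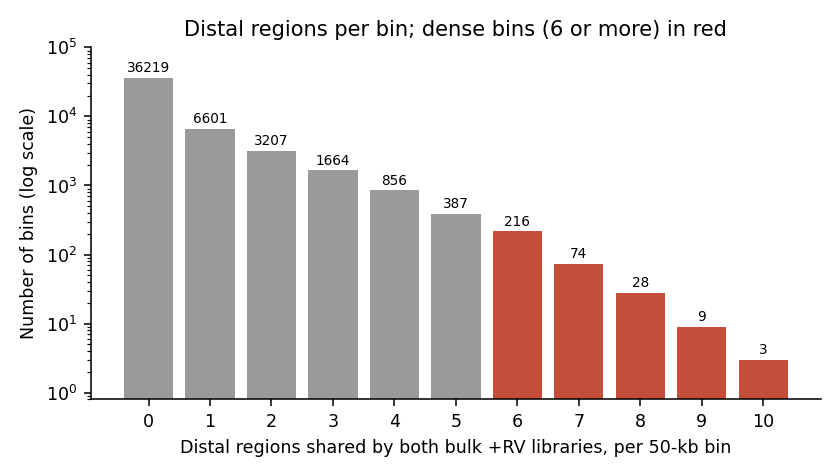
Number of 50-kb bins of chr1 to chr19 (log scale) by the number of distal regions shared by both bulk +RV libraries, with dense bins in red. The number of bins falls at each step, from 36219 with no distal region to 3 with 10, without a break at the limit of 6.

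Distal regions became rarer as their number per bin rose. No distal region lay in 36219 bins, and 12715 bins held 1 to 5. Just outside the limit lay 387 bins with 5 regions, and just inside it 216 bins with 6. Another 74 bins held 7, 28 held 8, 9 held 9 and 3 held 10. A dense bin thus had a median of 6 distal regions, spaced by a median of 5.31 kb, and these covered a median of 3408 bp of the bin (2078 to 5935 bp).

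The regions of dense bins were placed like other distal regions. Of the 2149 regions, 49.7% lay in introns, 47.7% between protein-coding genes and 2.61% in exons. For the regions of other bins these shares were 48.9%, 46.6% and 4.53%. The median distance to the nearest TSS was 24.7 kb, against 24.5 kb elsewhere, and the median width was 480 bp against 494 bp. The median caller score, which grows with the significance of a peak and is not its height, was 120 and 119 in the +RV libraries against 111 and 111. The median fold over the caller's background was lower in dense bins, at 3.64 and 3.63, than elsewhere, at 4.40 and 4.40.

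Dense bins held a TSS more often than bins in general. Of the 330 dense bins, 163 (49.4%) held a TSS, against 30.6% of all bins. The body of a protein-coding gene overlapped 259 of the 330 dense bins, a share that was not counted over all bins. The remaining 71 dense bins held no protein-coding gene. Their centres lay at a median of 62.9 kb and at most 479 kb from the nearest TSS. The share of bins that were dense ran from 0.437% on chr3 to 1.22% on chr19.

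Most dense bins stood alone on this grid, and 44 lay next to another dense bin, in 21 runs. The 2 longest runs spanned 150 kb. The run at chr17:34200001-34350000 held 21 distal regions over the MHC class II genes H2-Aa, H2-Ab1, H2-Eb1, H2-Eb2 and H2-Ob, whose products present peptides to T cells, and Tap2, a subunit of the peptide transporter of MHC class I. The run at chr9:44450001-44600000 held 18 over Cxcr5, the receptor that brings B cells into follicles, Bcl9l, a coactivator of Wnt signalling, and Upk2, a urothelial gene. Next came runs of 100 kb. Irf2bpl at chr12:86800001-86900000 had 19 regions, Fli1 at chr9:32500001-32600000 had 15, Gpr183 and Gpr18, receptors of lymphocytes that lie within Ubac2, at chr14:121900001-122000000 had 14, and Ier5, an immediate early gene, at chr1:155000001-155100000 had 13.

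The 3 bins with the most regions, 10 each, were different in kind. The bin chr12:86800001-86850000 held no protein-coding gene and lay 59.8 kb from the TSS of Irf2bpl, and its distal peaks numbered 11 and 11 in the +RV libraries and 8 and 8 in the −RV libraries. The bin chr2:6250001-6300000 held none either, lay 47.7 kb from the TSS of Usp6nl, a GTPase-activating protein for Rab5, and counted 11 and 10 distal peaks with reverse crosslinking and 6 and 11 without. The bin chr4:101150001-101200000 lay within Jak1, a kinase bound to many cytokine receptors, and Raver2, an RNA-binding protein, with all 10 regions in introns, and counted 11 and 10 against 9 and 8. The +RV peaks chose these 3 bins, so higher counts in +RV than in −RV describe the choice and are not a result.

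Bins with 9 regions held genes known from lymphocyte survival and signalling as well as others. They were those of Tnfrsf1b, a receptor of tumour necrosis factor, Rnf145, an E3 ubiquitin ligase, Mcl1 with Adamtsl4, of which Mcl1 blocks apoptosis, the Gimap cluster of GTPases of lymphocytes (Gimap1, Gimap6, Gimap7), Irf2bpl, Zmiz1, a transcriptional coregulator, Nfic, a nuclear factor I family member, and Fli1, an ETS factor of blood and endothelium. A further bin without a coding gene, chr6:129200001-129250000, lay 44.4 kb from the TSS of Clec2d, a ligand of natural killer cell receptors. The widest-covered bins with 8 regions were those of Btg2, an antiproliferative gene, of Btd with Ankrd28, and of Ttll5. At Btg2 all 8 regions had a peak in both −RV libraries, with 9 distal peaks in each of the 4 libraries. At Mcl1 only 3 of 9 regions did, with 9 and 10 distal peaks with and 4 and 5 without reverse crosslinking.

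The lists of lymphocyte signalling genes and blood transcription factors had larger shares in dense bins than the marker lists of cell types. All lists were chosen with earlier results of these data known, so the contrast is a description and no support. Of 20696 protein-coding genes, 378 (1.83%) overlapped a dense bin with their body, which the rule itself fixes, so nothing was tested. Of the 38 genes on the list of lymphocyte surface and signalling genes, 8 did (21.1%). They were Cd83, Ccr7, Selplg, Prkch, Cd74, Btg2, Coro1a and Inpp5d. Of the 40 genes on the list of blood transcription factors, 7 did (17.5%), namely Ikzf1, Ets1, Fli1, Foxp1, Bach2, Elf1 and Zfp36l1, the last an RNA-binding protein and not a transcription factor. Genes in dense bins were longer, with a median of 33.3 kb against 17.6 kb over all genes, and a long gene overlaps more bins. Gene length was not compared between the lists.

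Marker lists of cell types gave few or no members. Of 20 B cell markers, 2 lay in dense bins, Cxcr5 and Fcrla. The natural killer list gave Klrb1c of 10, the neutrophil list Mpo of 10, the housekeeping list Actb of 18 and the cell cycle list Aurkb of 13. None of the 20 T cell, 18 macrophage and monocyte, 10 dendritic cell, 14 erythroid, 9 megakaryocyte, 7 plasma cell, 13 endothelial, 14 stromal, 10 pancreatic acinar, 10 neuron, 9 hepatocyte and 9 skeletal muscle genes measured did. The immunoglobulin light chains, which are on none of these lists, lay in 3 dense bins: chr6:70700001-70750000 with the kappa joining segments and Igkc, and chr16:19050001-19100000 and chr16:19200001-19250000 with lambda segments such as Iglc1, Iglc2 and Iglc3.

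Several of these genes had more than 1 dense bin. Ikzf1, a zinc finger factor needed for lymphoid development, had 7 distal regions at chr11:11750001-11800000, of which 6 had a peak in both −RV libraries, and 6 regions at chr11:11650001-11700000, of which 2 did. Foxp1, a forkhead factor of B and T cells, had 8 regions at chr6:99350001-99400000, where the +RV libraries had 9 and 10 distal peaks and the −RV libraries 2 and 5. Bach2, a repressor that keeps lymphocytes from terminal differentiation, had 8 regions at chr4:32250001-32300000, with 8 and 8 distal peaks against 5 and 4. Ets1, the founding ETS factor, had 6 regions in each of 2 bins, of which 6 and 2 had a peak in both −RV libraries. Within 1 gene the bins thus differed in how much of the set was also called without reverse crosslinking.

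The first comparison asked how much of the dense bins was open by the −RV libraries, which the rule did not use. Of the 2149 distal regions of dense bins, 1333 (62.0%) had a peak in both −RV libraries, beside 52.7% of all 25515 distal regions and 51.9% of those in other bins. The shares in the single −RV libraries were 71.2% and 74.2%, and 358 regions (16.7%, against 26.3% elsewhere) had a peak in neither. The regions are not independent replicates, so the difference of shares has no test.

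The −RV share rose with the caller score of the +RV peak. Among dense-bin regions with a best score under 100, 27.2% had a peak in both −RV libraries (19.4% elsewhere), among those from 100 to 200 it was 75.4% (64.0%), and from 200 upwards 99.4% (98.6%). In each of these 3 classes the share was higher in dense bins. Every distal region had a peak in both −RV libraries in 22 dense bins, and 1 dense bin held no distal region shared by the −RV libraries.

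The same rule on the −RV lists kept 76 bins, 0.154% of all bins. Of these, 67 were among the 330 dense bins, which is 88.2% of the 76 and 20.3% of the 330. In the −RV libraries, 282 of the 330 dense bins held 3 or more distal regions shared by both, and 47 held 1 or 2.

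**Figure D2:**
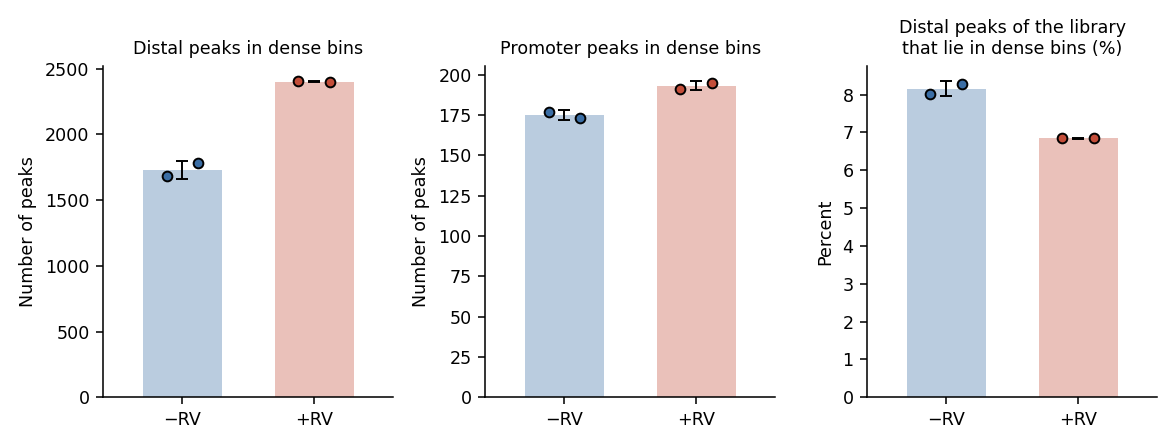
Distal peaks (left) and promoter peaks (middle) in the 330 dense bins, and the percent of each library's distal peaks that lie in them (right), for the −RV and +RV bulk libraries. Points are libraries, bars are means and error bars the SD (n = 2); +RV libraries were higher in the first 2 panels and lower in the third.

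Per library, dense bins held 2402 and 2399 distal peaks with reverse crosslinking and 1683 and 1779 without. The mean was 1.39 times as high in +RV, a description, since +RV peaks chose the bins. In all other bins the ratio was 1.67. The dense bins accordingly took a larger share of each −RV library's distal peaks, 8.01% and 8.29%, than of each +RV library's, 6.86% and 6.84%. When each library was limited to its 32288 best-ranked peaks, the ratio in dense bins was 0.981. That setting makes the total peak numbers equal. Its ratio in other bins was not computed, so nothing particular to dense bins follows from it.

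Promoter peaks, which the rule left out, allowed a test. Dense bins held 191 and 195 promoter peaks in the +RV libraries and 177 and 173 in the −RV libraries. The groups did not overlap, and the means differed 1.10-fold (1.08 to 1.13 over pairs of libraries), with p = 0.333 in a two-sided exact permutation test, the smallest value that 2 against 2 libraries allow. In other bins the ratio was 1.118 to 1.121 over pairs of libraries. With equal numbers of best-ranked peaks the ratio in dense bins was 1.00 (p = 1 in the exact permutation test). No difference in promoter peaks could therefore be shown at this number of libraries.

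The dense bins with the fewest distal peaks without reverse crosslinking held 1 to 3 per −RV library. Nrp2, a semaphorin and VEGF receptor, at chr1:62750001-62800000, had 7 and 6 peaks with and 1 and 1 without. A bin of Fancc, a Fanconi anaemia gene, and 2010111I01Rik at chr13:63250001-63300000 had 7 and 6 against 1 and 2. Coro1a, an actin regulator of leukocytes, at chr7:126700001-126750000 had 6 and 6 against 2 and 2. The bin of Rtn4rl2 and Slc43a1 at chr2:84850001-84900000 had 7 and 6 against 1 and 3, and Swap70, a signalling adaptor of B cells, at chr7:110250001-110300000 had 7 and 7 against 2 and 3. All 330 dense bins had at least 6 distal peaks in each +RV library, and low −RV counts chose these 5 bins. The gap between the conditions thus follows from the choice and is not a result.

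The single-cell fragments gave a readout of the same bins that the rule did not use. Dense bins took 2.39% of the −RV fragments (exact binomial 95% interval 2.37 to 2.42%) and 2.60% of the +RV fragments (2.59 to 2.61%), on 0.670% of the bins. The intervals given for single-cell values reflect counting error alone. The mean level in dense bins was 3.67 times that of all bins in −RV and 3.99 times in +RV. In CPM, the fragments per 1000000 nuclear fragments of the set, the median dense bin stood at 67.8 in −RV and 74.2 in +RV, against 13.2 and 12.2 over all bins and 29.5 and 30.7 in bins with 1 to 5 distal regions. The lowest dense bin had 19.5 and 27.0 CPM and the highest 202 and 194.

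**Figure D3:**
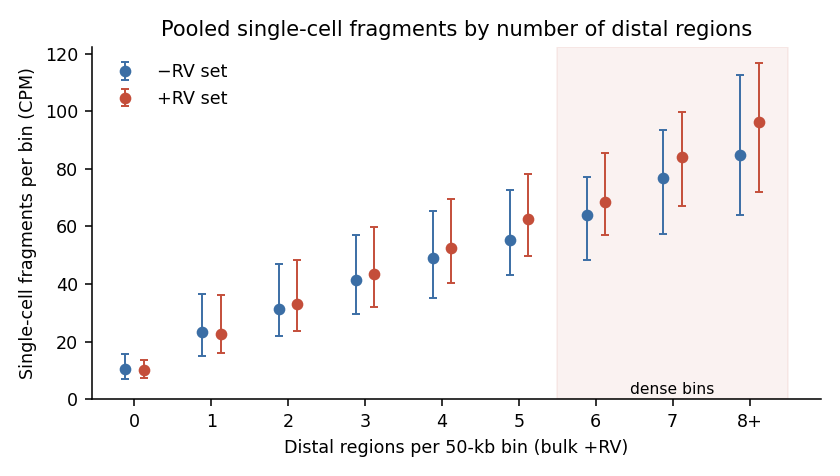
Single-cell fragments per bin (CPM, median with 25th and 75th percentile over bins) by the number of bulk distal regions in the bin, for the pooled −RV and +RV sets. Medians rose at each step, from 10.7 and 10.3 with no region to 84.8 and 96.4 with 8 or more, the dense bins lying in the shaded range.

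The single-cell level rose with the number of distal regions in the bulk lists. Median CPM went from 10.7 (−RV) and 10.3 (+RV) in bins with no distal region over 55.3 and 62.5 in bins with 5 and 64.1 and 68.5 in bins with 6 to 84.8 and 96.4 in the 40 bins with 8 or more. From 5 to 6 regions the median thus moved by less than from 6 regions to 7, where it reached 76.9 and 84.1. Among the bins with most regions, the Btg2 bin stood at 199 and 194 CPM, the bin near Clec2d at 202 and 180, Mcl1 at 143 and 146, and Ttll5 at 52.1 and 61.8.

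The signal was concentrated in the distal regions themselves. Inside them, dense bins had 5.40 CPM per kb in −RV and 6.27 in +RV, against 1.153 and 1.225 in the rest of the same bins, a 4.68-fold and 5.12-fold difference. Distal regions of other bins had 3.92 and 4.59 CPM per kb, and bins without a distal region 0.275 and 0.264. The remainder of the dense bins, which includes promoters and peaks called in 1 library only, was thus also above the level of bins without a distal region. Distal regions held 26.0% of the −RV and 27.8% of the +RV fragments of dense bins.

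Fragments of dense bins were longer. Those longer than the DNA of a nucleosome core made up 3.01% of −RV fragments in dense bins (exact binomial 95% interval 2.84 to 3.18%) against 2.29% elsewhere. In +RV they made up 25.3% against 20.3%. Median lengths were 67 against 62 bp and 85 against 76 bp. Lengths near the read lengths are affected by read trimming before deposit.

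Between the single-cell sets, dense bins differed little. With 1 pooled set per condition there is no test of the condition, and the ratio of CPM was read for the 323 dense bins with at least 50 −RV fragments. Its median, +RV over −RV, was 0.12 on the log2 scale, against 0.02 over all 8526 bins that passed the same minimum. Summed over the dense bins the ratio was 1.09 (95% interval 1.08 to 1.10). At least 1.5-fold higher in +RV were 10 dense bins (3.10%, against 0.762% of all bins tested), and at least 1.5-fold lower was 1 (0.310%, against 1.88%). The minimum of 50 −RV fragments keeps bins outside the dense set partly through a high −RV value, so these shares are not like for like. The interval of the ratio lay above 1 in 68 dense bins, below 1 in 6 and held 1 in 249. These interval counts were not made over all bins tested. Intervals narrow with the number of fragments, so the counts do not set dense bins apart. Among fragments of 50 to 100 bp the median was −0.04 in dense bins, against −0.16 over the 3687 bins that passed the minimum there, and the summed ratio was 0.99 (0.977 to 1.003). The sign of the dense-bin median thus depended on fragment length, while it lay above that of all bins in both cases.

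The largest ratios belonged to Rin3 with Lgmn at chr12:102350001-102400000, with 37.7 CPM in −RV and 67.8 in +RV and a ratio of 1.80 (95% interval 1.39 to 2.38). Lgmn encodes a lysosomal protease. Emb with Gm17509 followed at 1.76, then Gng2, a G protein subunit, at 1.71, Ctcfl, a paralogue of CTCF, at 1.70, and Litaf with Txndc11 and Snn at 1.6. The lowest was the bin of the embryonic globin gene Hbb-y with Olfr64 and Olfr66 at chr7:103850001-103900000, at 105.5 CPM without and 67.7 with reverse crosslinking and thus a ratio of 0.641 (0.544 to 0.760). Ctss with Ctsk, cathepsin genes, stood at 0.710, Hfm1 at 0.768, Alg9 with Ppp2r1b at 0.788 and the lambda bin with Iglc2 at 0.791. The intervals of Hfm1 and of the lambda bin held 1.

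The mix of barcodes differed between the sets beside these values. Erythroid-like barcodes, defined below, were 26.0% of the −RV and 18.8% of the +RV barcodes. Within them, the Hbb-y bin had 311 CPM without and 247 with reverse crosslinking, which gives 0.794 (0.660 to 0.960), nearer to 1 than over all barcodes. Within the same barcodes, Ctss with Ctsk stood at 0.629 (0.475 to 0.845). Within B cell-like barcodes, the lambda bin with Iglc2 had 180.9 CPM in −RV against 104.9 in +RV, which gives 0.58 (0.446 to 0.765), further from 1 than over all barcodes and with an interval below 1. Summed over all dense bins, the ratio was 1.00 within B cell-like, 1.06 within erythroid-like, 1.05 within T cell-like, 0.994 within macrophage and monocyte-like and 1.13 within pancreatic acinar-like barcodes, against 1.09 over all. Other differences between the sets, such as depth per barcode and fragment length, were not tested as a part of it.

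The single-cell barcodes also gave the level of dense bins in groups of barcodes, relative to all other barcodes. Barcodes of both sets were clustered on 5000-bp tiles that left out the dense bins and 50 kb on either side, so no dense-bin fragment shaped the clusters, while the other bins did. Of the 6 clusters, 5 took a name from marker lists. The B cell-like cluster had 6020 barcodes, the erythroid-like 4132, the T cell-like 3619, the macrophage and monocyte-like 2688 and the pancreatic acinar-like 801. In the T cell-like cluster the natural killer list was raised as much as the T cell list (3.95-fold and 3.99-fold). A third-ranked cluster of 3766 barcodes was left unnamed. Its stromal list was raised 3.65-fold and its endothelial list 2.1-fold, and its leading genes included Ccn1, Clec14a and Cldn5, of which Clec14a and Cldn5 are known from endothelium. A dense bin counted as raised in a cluster at 1.5 times the CPM of all other barcodes or more, with at least 30 fragments. Barcodes are not replicates, so these counts have no test.

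**Figure D4:**
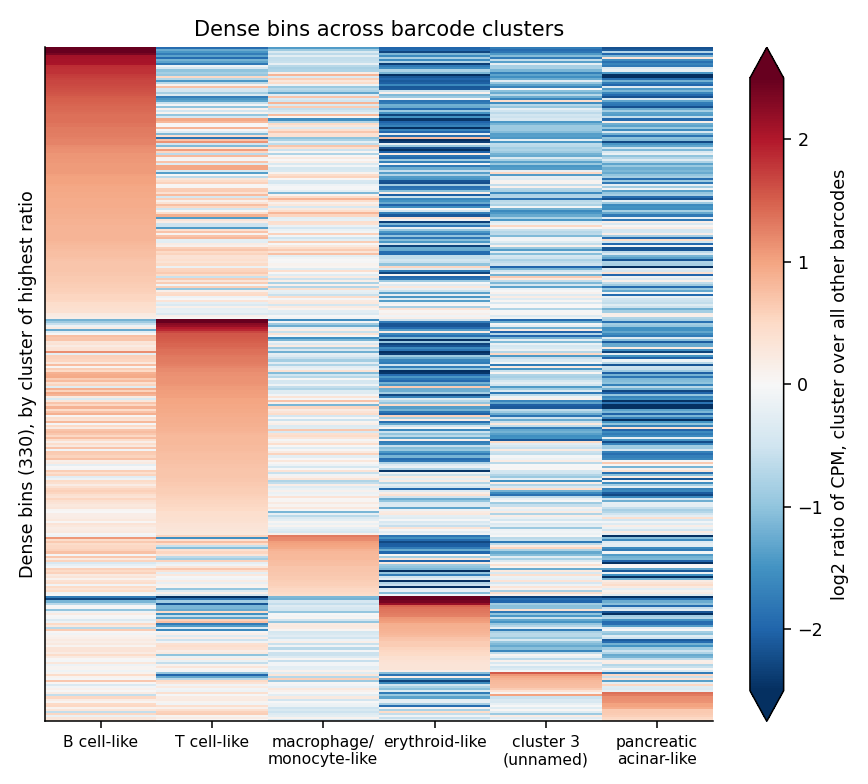
Log2 ratio of CPM in each barcode cluster over all other barcodes, with 1 line for each of the 330 dense bins, sorted by the cluster of the highest ratio. Blocks of bins highest in B cell-like and T cell-like barcodes take up most of the height, and most of those bins are blue in the erythroid-like column.

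Dense bins were most often raised in lymphocyte-like barcodes. In the B cell-like cluster 157 of 330 (47.6%) were raised, against 11.4% of all bins with enough fragments and 19.4% of bins with 1 to 5 distal regions. In the T cell-like cluster it was 117 of 327 (35.8%), against 24.3% and 21.9%. In the macrophage and monocyte-like cluster 41 of 329 were raised (12.5%, against 23.7% and 19.5%), and in the erythroid-like cluster 27 of 330 (8.18%, against 19.9% and 15.7%). The unnamed cluster gave 11 of 329 (3.34%, against 28.6% and 20.2%) and the pancreatic acinar-like cluster 13 of 136 (9.56%, against 41.9% and 33.6%). Bins outside the dense set have fewer fragments and can pass the minimum of 30 through the cluster in which they are high, the more so in small clusters. The same holds for dense bins in the pancreatic acinar-like cluster, where only 136 of the 330 reached that minimum. Bulk peaks of the whole tissue chose the dense bins, so common cell types can weigh more in the choice. How far that shapes these shares was not tested. Of the +RV barcodes, 29.2% were B cell-like, 18.8% erythroid-like, 18.0% of the unnamed cluster, 17.5% T cell-like, 13.2% macrophage and monocyte-like and 3.32% pancreatic acinar-like.

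Summed over all dense bins, the level was 1.47 times that of other barcodes in the B cell-like cluster (95% interval 1.46 to 1.48) and 1.28 times in the T cell-like cluster (1.27 to 1.29). It was 0.982 in the macrophage and monocyte-like, 0.714 in the unnamed, 0.699 in the erythroid-like and 0.656 in the pancreatic acinar-like cluster. Of the 330 dense bins, 52 were raised in no cluster, 195 in 1 cluster, 78 in 2 and 5 in 3. The B cell-like and T cell-like clusters shared 58 raised bins, and the B cell-like and macrophage and monocyte-like clusters 19. None of these numbers was counted over other bins, so they describe the dense bins and do not set them apart. A bin of 50 kb holds 6 or more regions, and these need not be open in the same cells.

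In B cell-like barcodes the highest bins were those of the immunoglobulin lambda locus. The bin chr16:19050001-19100000 had 107 CPM in B cell-like and 12.4 in other barcodes, 8.58 times as high (95% interval 7.07 to 10.5), and the bin of Iglc2 6.90 times. Tnfrsf13b, the receptor TACI of B cells, followed at 5.96 times, Agbl1 at 5.18, and a bin without a gene, 429 kb from the TSS of Mef2c, at 4.31. The kappa bin stood at 2.38 times in B cell-like and 1.67 in erythroid-like barcodes. The 3 bins of the MHC class II run stood at 1.81, 3.18 and 3.21 in B cell-like and 0.895, 1.38 and 1.53 in macrophage and monocyte-like barcodes, so the bin with Tap2 was the lowest of the run in both. Cd83 at 3.38, Fcrla at 2.71, Cd74, the MHC class II invariant chain, at 2.51 and Ccr7, which guides lymphocytes to T cell zones, at 2.37 were also raised there.

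In T cell-like barcodes the highest bin held no protein-coding gene. At chr9:85100001-85150000, 187.8 kb from the nearest TSS, it had 126 CPM against 16.8 in other barcodes, 7.51 times as high (6.28 to 8.99). The bin of Spef2, whose centre lies 45.2 kb from the TSS of Il7r, the interleukin 7 receptor chain, stood at 6.39 times. A bin 228.6 kb from the TSS of Ets1 followed at 4.78, Slc12a7 with Slc6a19 at 4.50, and a bin 82.0 kb from Rasgrp1, a Ras activator downstream of the T cell receptor, at 3.93. Prkch, a protein kinase C, stood at 3.69 and was low in B cell-like barcodes at 0.418. The Gimap bin was raised in both, at 2.25 in B cell-like and 2.61 in T cell-like barcodes, and stood at 0.139 in erythroid-like barcodes. None of these bins held a gene of the T cell list.

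Bins of blood transcription factors were raised mostly in B cell-like and T cell-like barcodes, some of them in both. Of the 11 dense bins with a gene of that list, 5 were raised in B cell-like and 6 in T cell-like barcodes. In macrophage and monocyte-like barcodes 1 was raised, and none in erythroid-like barcodes. Over all dense bins with enough fragments the shares in these clusters were 47.6%, 35.8%, 12.5% and 8.18%, so counts this small do not set the list apart. The Fli1 bin was raised in B cell-like (1.66) and T cell-like (1.68) barcodes. Of the Ets1 bins, that at chr9:32700001-32750000 stood at 1.62 and 2.85, and that at chr9:32650001-32700000 at 2.00 and 1.5. Bach2 was raised in T cell-like barcodes (2.61) at its bin at chr4:32250001-32300000 and in macrophage and monocyte-like barcodes (2.26) at chr4:32550001-32600000, which also holds Gja10. The bins of Elf1 and Zfp36l1 were raised in no cluster. Of the 8 bins with lymphocyte surface and signalling genes, 5 were raised in B cell-like and 4 in T cell-like barcodes, beside the same 47.6% and 35.8%.

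Erythroid-like barcodes raised few dense bins, some of them strongly. The Hbb-y bin had 256 CPM against 21.7 in other barcodes, 11.8 times as high (10.3 to 13.6). Sh3glb1 stood at 10.9 times, Alg9 with Ppp2r1b at 5.25, a bin 63.7 kb from Prkar2b at 4.44 and Car2 with Car3, carbonic anhydrases of which Car2 is abundant in red cells, at 2.79. In macrophage and monocyte-like barcodes the highest were Frmd4b at 2.45, Tfeb, a regulator of lysosomal genes, at 2.29, Bach2 with Gja10 at 2.26, Tmprss4 with BC049352 at 2.07 and a bin 47.1 kb from Nfkbiz at 2.01. In pancreatic acinar-like barcodes Bcl9l with Upk2 stood at 2.59, Fancc at 2.47, Herpud1, a gene of the unfolded protein response, with Slc12a3 at 2.24, Eif2ak3, a sensor kinase of that response, at 2.20 and the bin of Mast3, Pik3r2, Rab3a and Mpv17l2 at 2.17. Among dense bins with at least 30 fragments in the cluster, only erythroid-like barcodes of these 3 clusters had bins above 5 times.

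Sequence motifs were counted in the 200 bp around the middle of each region, on both strands. They numbered 14 and were fixed strings of letters. The ETS string was AGGAAGT, known from the large family of ETS factors. The PU.1-type string was GAGGAAGT, which contains the ETS string and so always overlaps it. The GATA string was AGATAA, of the factors of that name. The RUNX string was TGTGGT, of the Runt family. The EBF string was CCCNNGGGA, of early B cell factors. The AP-1 string was TGANTCA, of the Fos and Jun families. The NF-kappaB string was GGGNNTTCC, of the Rel family. The E-box searched was CAGCTG, of basic helix-loop-helix factors. The interferon response string was GAAANNGAA, of the IRF family. The octamer was ATGCAAAT, of POU factors. The STAT string was TTCNNNGAA, of factors downstream of Jak kinases. The TCF and LEF string was CTTTGAT, of the factors of Wnt signalling. The NF-Y string was CCAAT, the box bound by that complex at many promoters. The CTCF core string was AGGGGGC, a part of the longer motif of CTCF. A match says that the letters are there and not that a factor binds.

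Dense-bin regions held these motifs about as often as other distal regions. ETS letters were in 21.3% of dense-bin regions, 21.4% of other distal regions and 6.49% of promoter regions. RUNX letters were in 23.0%, 22.2% and 7.65%, GATA letters in 9.68%, 9.99% and 2.53%, and AP-1 letters in 8.93%, 8.09% and 2.66%. The PU.1-type letters were in 8.84%, 8.72% and 2.4%. Further from the other distal regions stood NF-kappaB letters, at 6.61% against 4.71%, CTCF core letters, at 6.47% against 5.37%, and NF-Y letters, at 16.8% against 19.6%. The median GC content was 51.5% in dense-bin regions, 50.5% in other distal regions and 66% in promoter regions. These shares carry no test. Of the 330 dense bins, 259 held at least 1 region with ETS letters and 45 held 3 or more, and for RUNX letters these numbers were 262 and 56. A dense bin has 6 or more regions by the rule, which raises such numbers, and they were not counted over other bins.

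**Figure D5:**
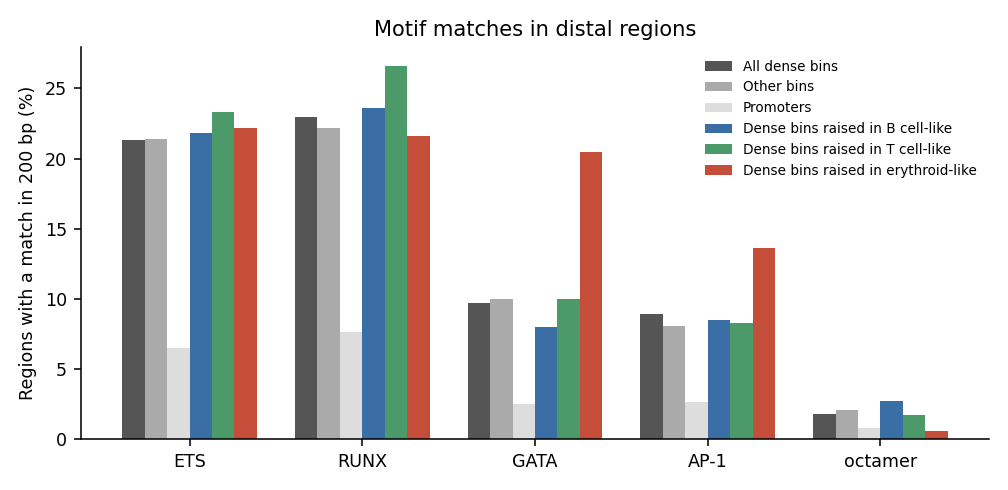
Percent of regions with a match to 5 of the motifs within 200 bp, for distal regions of all dense bins, of other bins, for promoters, and for dense bins raised in 3 of the barcode clusters. Dense and other bins stand level, promoters lower, and GATA letters stand highest in dense bins raised in erythroid-like barcodes, at 20.5%.

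Motif shares differed between dense bins grouped by cluster. In the 27 bins raised in erythroid-like barcodes, 36 of 176 regions (20.5%) held GATA letters, the motif of the erythroid factor GATA1. In bins raised in B cell-like, T cell-like, and macrophage and monocyte-like barcodes it was 8.02%, 10% and 6.61%. AP-1 letters were in 13.6% of the regions of erythroid-like bins and in 8.5% and 8.29% of those of B cell-like and T cell-like bins. RUNX letters were most frequent in T cell-like bins, at 26.6%. The octamer, the motif of Oct1, present in most cell types, and of Oct2, largely of B cells, was in 2.74% of regions in B cell-like bins and 1.71% in T cell-like bins. Interferon response letters were in 13.2% of 257 regions in macrophage and monocyte-like bins, against 9.48% and 7.11% in B cell-like and T cell-like bins. The 91 regions of the 13 pancreatic acinar-like bins had ETS letters in 7.69%, the lowest of the groups. Those 13 bins came from only 136 dense bins with enough fragments in that cluster. Other motifs did not stand highest where their factors are best known. EBF letters were in 4.79% of regions in B cell-like, 5.68% in erythroid-like and 6.59% in pancreatic acinar-like bins. TCF and LEF letters were in 3.16% in T cell-like, 3.13% in B cell-like and 3.41% in erythroid-like bins. PU.1-type letters were in 11.3% in macrophage and monocyte-like, 11.4% in erythroid-like and 10.2% in B cell-like bins. A bin raised in several clusters counts in each of them.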

How the data were processed

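Each sample's description gave its group and replicate number. The members and gene lists were chosen with earlier results of these data known. The authors deposited 1 peak list per bulk library on mm10, in MACS2 layout. In these lists the authors gave each peak a score (the −log10 q multiplied by 10), a fold (the ratio of its summit to local background) and −log10 values of p and q, each within 1 library. Per the methods, peaks came from MACS2 and blacklisted regions were removed. SEACR 1.3, Picard 1.119, SAMtools 1.15 and Bowtie2 2.4 stand in the submitters' processing notes without roles. For single cells the authors deposited positions and barcodes of unique fragments (unit other).

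TSSs and genes came from the GENCODE vM21 basic annotation. Peaks and single-cell fragments were assigned by midpoint. Values per library were compared by an exact two-sided permutation test, which was checked on simulated data. Intervals are exact binomial, for ratios conditional on the summed count. The number of peaks and fragments limits the precision, and counting intervals do not cover the spread between libraries. Barcodes were clustered by latent semantic indexing of 5000-bp tiles open in at least 50 and fewer than 1000 barcodes, with 8 components, 20 neighbours and Leiden resolution 0.5 (scikit-learn 1.9.0, leidenalg 0.10.2). The resolution, the limit of 1000, the components and the naming rule were set after the clusters were seen. A cluster took the name of its highest list if that list was raised at least 1.5-fold, at least 3 members were raised, at least 1 member was among the 10 leading genes and no other list had more. No doublet caller was run.

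Named bins and genes were the 15 bins with the most distal regions, list genes in dense bins, the 6 longest runs, the 5 highest and 5 lowest single-cell ratios, the 5 highest bins of each named cluster and the 5 bins with the fewest −RV distal peaks. The kappa bin and other bins named for comparison were chosen after their values were seen. Of the list genes, 6 lie outside chr1 to chr19 and were not measured. Same-numbered libraries did not deviate together (correlation of replicate differences −0.0075 for distal and −0.000701 for promoter peaks over all bins), and nothing in the labels pairs them.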

Additional observations from a re-analysis of the deposited data

How the results depend on the processing

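The number of dense bins, 330, depended on the settings: 206 at a −log10 q of at least 5, 60 with equal numbers of best-ranked peaks, 717 at a minimum of 5 regions, 40 at a minimum of 8, 76 on the −RV lists, and 678 to 704 with 1 +RV list alone. List genes, 21, then numbered 3 (best-ranked peaks), 43 and 4 (minimum of 5 and 8), 8 (−RV lists) and 38 to 46 (1 +RV list). The share of regions with a peak in both −RV libraries, 62.0%, was 59.8% for intersecting bases, 68.7% at the stricter q, 83.0% for best-ranked peaks, 100% by construction on the −RV lists, 49.1 to 50.2% with 1 +RV list, 50.9% when a peak had to cover 50% of the region, 83.3% for at least 1 −RV library, and 71.2 to 74.2% with 1 −RV list.

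The single-cell enrichment, 3.99, was 3.91 for intersecting bases, 4.27 at the stricter q, 4.67 for best-ranked peaks, 4.07 on a grid shifted by 25 kb, 3.65 and 5.04 at a minimum of 5 and 8, 3.93 with a promoter window of 2000 bp, 4.03 with all TSSs, 3.58 to 3.61 with 1 +RV list, 4.72 on the −RV lists, 3.68 for barcodes with 1000 or more fragments, 3.59 for fragments of 50 to 100 bp, 4.32 without promoter fragments and 2.13 against bins with 1 to 5 regions, the last added after the data were seen. The median log2 ratio, 0.12, was 0.15 for best-ranked peaks, on the shifted grid and without promoter fragments, 0.14 at a minimum of 5 and 0.16 on the −RV lists. It reversed to −0.039 for fragments of 50 to 100 bp and to −0.31 for barcodes with 1000 or more fragments, where 6 dense bins kept enough fragments and the summed ratio was 1.1. The cause was not tested.

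The ratio of distal peaks reversed to 0.981 with equal numbers of best-ranked peaks. With a replicate block the promoter ratio stayed 1.10 with p = 0.5 (exact permutation test), the smallest value the block allows. Dense bins raised in a cluster, 278, numbered 272 to 291 over the other clusterings, of which resolution 1 was added after the data were seen. Clusters without a name were 1 of 6, and 4 of 10 and 6 of 19 at resolution 1 and 2. The ETS share, 21.3%, was 12.4% in 100 bp and 30.5% in 400 bp. Of the alternative values for the main results, 44 kept their side or moved less than the spread, 45 moved further and 3 reversed. Unknown read numbers limit the bulk lists, and the 1592372 −RV fragments limit ratios of single bins.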
